A study of Mus musculus with 4 samples.

Results

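Erbb3, Gpr37 and Vldlr are 3 receptors of the cell surface, chosen by name from a table of changed transcripts that the authors deposited with arrays of mutant mouse spinal cord. Each was the only symbol of a single transcript cluster, as the probe groups of this array type are called: cluster 10373467 for Erbb3, 10543466 for Gpr37 and 10462281 for Vldlr. They are 3 of the 369 genes that the table names and 3 of the 35557 clusters measured. The 2 Sip1 cKO samples had the genotype Sip1c/c;Olig1-Cre, and the 2 control samples were littermates of genotype Sip1c/+;Olig1-Cre, so that the controls carried the Cre as well and had 1 floxed copy of the gene. All 4 came from whole spinal cord at postnatal day 14, on a strain background labelled c57.129 mixed background. Sip1 is an older name of Zeb2, a transcription factor with zinc fingers, and Olig1-Cre recombines in cells that use the promoter of Olig1, a gene of the oligodendrocyte lineage. The labels call the samples biological replicates without saying whether each came from 1 animal or several, and p-values measure the spread between these arrays. The authors' table holds clusters with a fold of at least 1.45 on the same arrays, so the size and direction of any gene named through it are not independent of that choice.

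The receptors belong to unrelated families. Erbb3 is a member of the epidermal growth factor receptor family that binds neuregulins, has little kinase activity of its own, and signals by pairing with other family members and recruiting phosphoinositide 3-kinase. It is made in the oligodendrocyte lineage and in Schwann cells. Gpr37 is a G protein-coupled receptor of oligodendrocytes and some neurons, for which prosaposin has been proposed as a ligand, and in mice it restrains oligodendrocyte differentiation. Vldlr, the very low density lipoprotein receptor, binds reelin and lipoproteins that carry apolipoprotein E, takes up lipid, and passes the reelin signal on through the adaptor Dab1. Neurons and other cells of the cord make it besides glia. The comparison of the 3 asks how much signal of each is left in Sip1 cKO.

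RefSeq's promoter sequences of build GRCm38.p6 were matched for 2 of the 3 genes, Gpr37 and Vldlr, which had similar changes in Sip1 cKO. They are shown because Zeb2 binds DNA at the letters CACCT, and the 250 bases before each start are printed 5′ to 3′ on the gene's strand, with CACCT or its reverse complement AGGTG in capitals.
Gpr37, chr6:25689981-25690230, minus strand: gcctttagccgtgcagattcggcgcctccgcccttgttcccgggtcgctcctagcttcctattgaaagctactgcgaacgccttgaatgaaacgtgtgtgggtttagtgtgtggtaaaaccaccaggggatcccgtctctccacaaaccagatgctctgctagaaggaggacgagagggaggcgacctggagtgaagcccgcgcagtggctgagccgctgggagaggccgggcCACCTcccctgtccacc
Vldlr, chr19:27216234-27216483, plus strand: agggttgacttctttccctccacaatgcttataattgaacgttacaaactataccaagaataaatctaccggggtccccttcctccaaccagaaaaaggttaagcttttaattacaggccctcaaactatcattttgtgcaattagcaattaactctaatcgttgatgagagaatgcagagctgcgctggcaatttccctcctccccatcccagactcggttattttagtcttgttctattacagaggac
Gpr37 held CACCT, with its first base 17 bases before the start, as its only match on either strand in the 300 bases of RefSeq's window, which runs to 50 bases past the start. The Vldlr window of the printed start held 0 matches. The window of a second RefSeq start of Vldlr, chr19:27216770-27217069, held 1, whose first base lay 73 bases before that start. Of all 32851 promoter windows of this length 51.9% held CACCT on either strand, so a match is common. The core letters of Sox factors, ACAAAG and ACAATG, were also searched on both strands and stand in 18.7% and 12.6% of windows. Among the windows of these genes the searches found ACAATG in the Vldlr window of the printed start, 229 bases before the start, and no other match. A match in letters is a description and not a binding site.

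Zeb2, the targeted gene, read 8.61 and 8.66 on the Sip1 cKO arrays, against 10.29 and 10.47 on the control arrays, in log2 units as are all array values given here. Its signal in Sip1 cKO was 29.8% of control, and where its probes lie relative to the deleted part was not analysed here. Across clusters the Sip1 cKO arrays correlated with each other at Pearson's r = 0.993, the control arrays at 0.990 and arrays of different groups at 0.983 to 0.984, and the array medians lay between 6.62 and 6.70. With limma and a threshold of 0.05 on the p adjusted by Benjamini and Hochberg across clusters, 1.08% of the 35557 clusters passed and 0.858% passed as lower in Sip1 cKO. Only 2 arrays in each group limited the precision of every value.

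Erbb3 lost most of its signal in Sip1 cKO. It read 6.12 and 6.29 on the Sip1 cKO arrays, against 9.54 and 9.62 on the control arrays. The groups lay far apart, with 3.25 log2 units between the highest Sip1 cKO array and the lowest control array, while arrays of the same group differed by 0.17 in Sip1 cKO and 0.08 in control. Group means were 6.21 ± 0.12 in Sip1 cKO and 9.58 ± 0.06 in control (SD, n = 2 each). The log2 change was -3.37 with a standard error of 0.11, or 10.4-fold lower (limma, adjusted p = 0.00569). This left 9.66% of the control signal, with a 95% interval of 7.93% to 11.8% from the same fit. Both Sip1 cKO arrays read Erbb3 below their array's median, whereas both control arrays read it above. How much of the remaining signal is unspecific was not analysed here. Without control replicate 1 the log2 change was -3.41, and without control replicate 2 it was -3.33, so the size was kept. With 1 control array left the call was lost, for Erbb3 as for every other cluster.

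Gpr37 kept far more of its signal. It read 9.62 and 9.72 on the Sip1 cKO arrays, against 10.62 and 10.89 on the control arrays. Both Sip1 cKO arrays were below both control arrays by at least 0.90, and the control arrays differed from each other by 0.27, more than the Sip1 cKO arrays did with 0.11. Group means were 9.67 ± 0.08 in Sip1 cKO and 10.76 ± 0.19 in control (SD, n = 2 each). The log2 change was -1.08 with a standard error of 0.13 and did not pass the threshold (limma, adjusted p = 0.0517, unadjusted p = 5.62e-04). The signal in Sip1 cKO was 47.1% of control, with a 95% interval of 37.2% to 59.7%. The adjusted p depended on the setting, and Gpr37 passed in 5 of 14 settings. With median centring it was 0.0759, and with the replicate number as a block 0.0798 (limma). It was 0.00883 (limma) without the 6614 clusters of the unbroken lowest run of identifiers. With dim clusters left out it was 0.0122, and with a spread that follows the signal level 0.0190 (limma). Without a probe annotation it was not known whether the lowest run holds control probes, and its clusters count among the 35557.

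Vldlr had a change close to that of Gpr37. It read 8.46 and 8.37 on the Sip1 cKO arrays, against 9.26 and 9.51 on the control arrays. The groups did not overlap, with 0.80 between the nearest arrays, and the control arrays were again further apart (0.25) than the Sip1 cKO arrays (0.08). Group means were 8.42 ± 0.06 in Sip1 cKO and 9.39 ± 0.18 in control (SD, n = 2 each). The log2 change was -0.97 with a standard error of 0.13 and did not pass (limma, adjusted p = 0.0591, unadjusted p = 7.64e-04). The signal in Sip1 cKO was 51.0% of control, with a 95% interval of 40.6% to 64.0%. Vldlr passed in 3 of 14 settings. Its adjusted p was 0.0118 without the lowest run of identifiers and 0.0152 with dim clusters left out (limma). With a spread that follows the signal level it was 0.0273 (limma). It was 0.0818 with median centring and 0.127 with the replicate number as a block (limma). In whole cord, fewer cells of a type and less RNA per cell cannot be told apart for any of these genes.

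**Figure D1:**
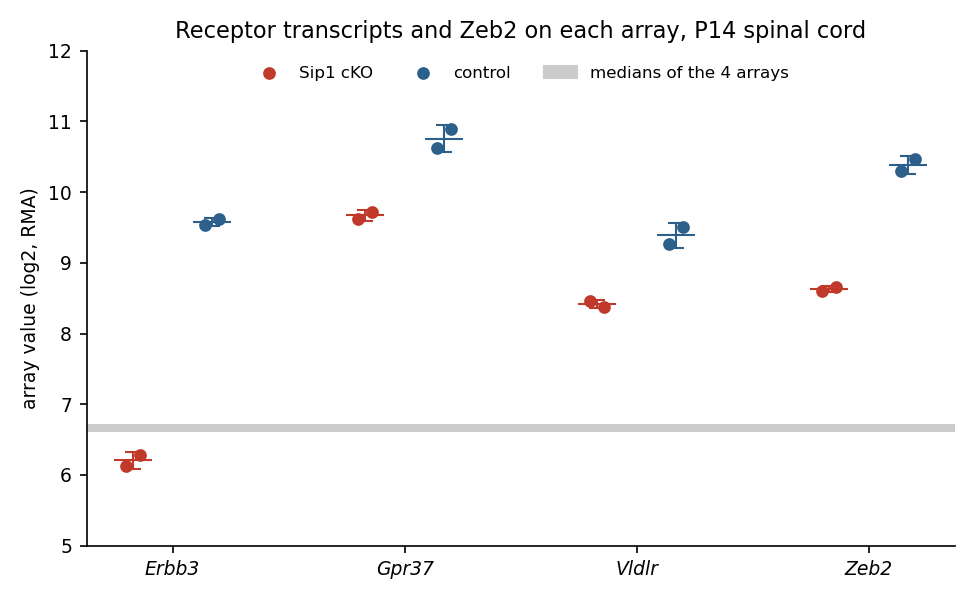
Array values (log2, made with RMA) of the 3 receptors and Zeb2, with a point for each array, Sip1 cKO left of control, and bars for the mean and SD of 2 arrays. Groups do not overlap for any of the 4 genes, and Erbb3 in Sip1 cKO, at 6.12 and 6.29, is below the grey band of array medians.

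So 1 of the 3 receptors fell at the threshold, Erbb3, where 0.858% of all clusters passed as lower. All 3 had both Sip1 cKO arrays below both control arrays, which was also true of 25.1% of all clusters. All 3 receptors passed as lower in only 3 of 14 settings, the 3 in which Vldlr passed, while Erbb3 passed in 12 and Gpr37 in 5. They were the fits without the lowest run of identifiers, with dim clusters left out and with a spread that follows the signal level. Of the clusters tested, 2.07%, 3.66% and 1.37% passed as lower in these fits. Among all 35557 clusters 25 had a lower log2 change than Erbb3, 411 a lower one than Gpr37 and 509 a lower one than Vldlr. Among the 369 named genes the counts were 24 for Erbb3, 239 for Gpr37 and 262 for Vldlr, so that the last pair lay past the middle of a table already chosen for change. The authors' deposited table gives mean intensities of 87.8 in Sip1 cKO and 778.3 in control for Erbb3, which leaves 11.3%. For Gpr37 the authors' deposited table leaves 47.4% and for Vldlr 51.6%.

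**Figure D2:**
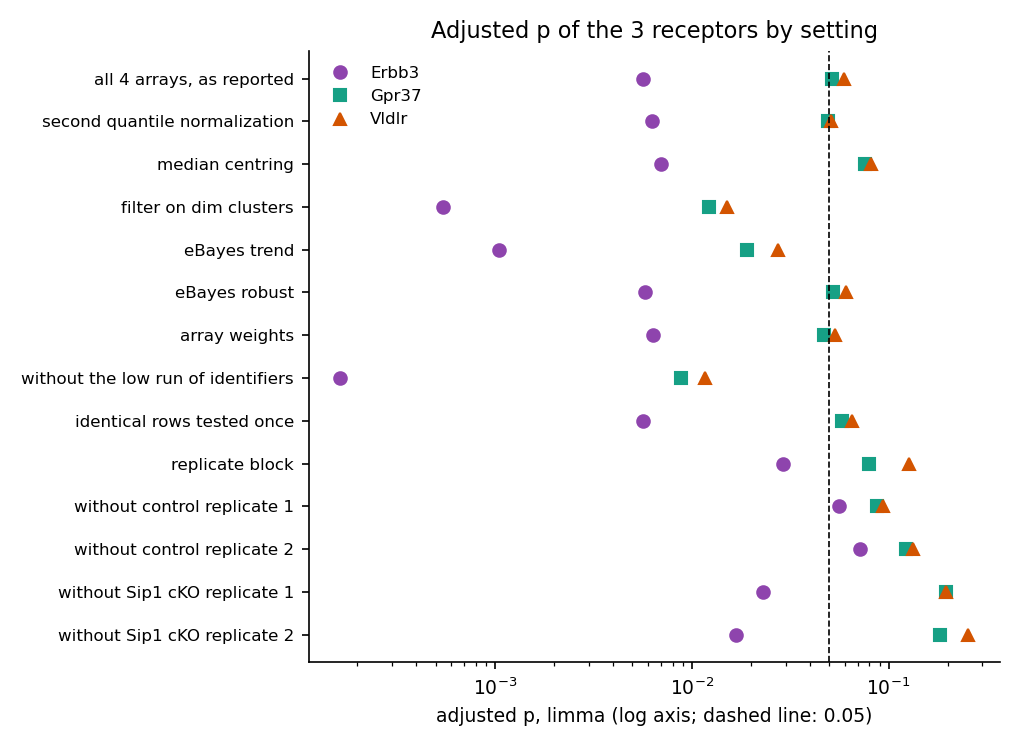
Adjusted p (limma, log axis) of each receptor in the analysis as reported and in 13 other settings, with a dashed line at 0.05. Erbb3 passed in 12 of the 14 and missed without either control array, where no cluster passed. Gpr37 passed in 5 and Vldlr in 3.

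**Figure D3:**
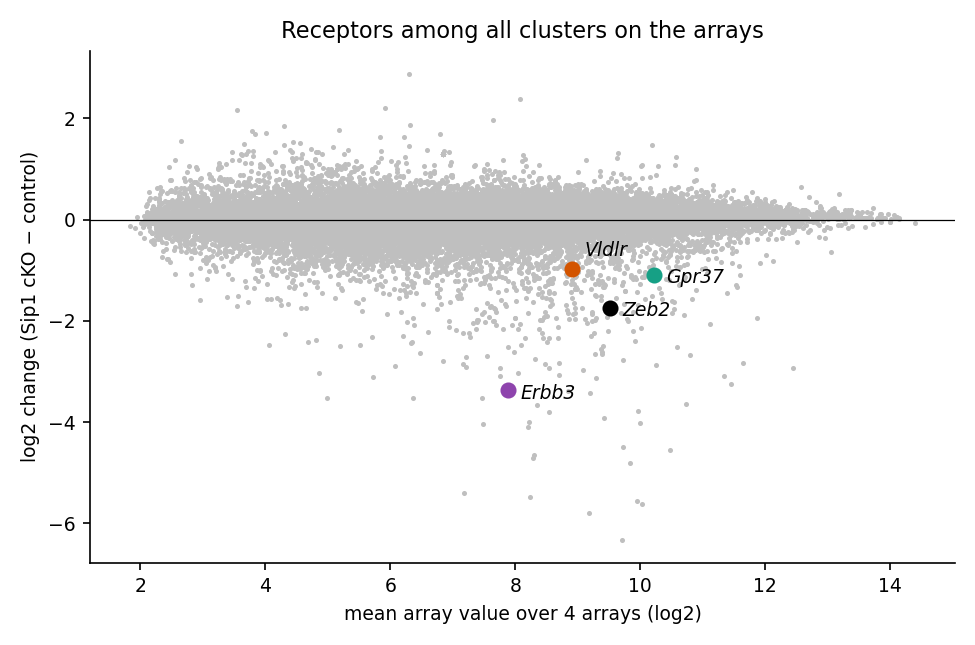
Log2 change (Sip1 cKO minus control) against the mean array value over 4 arrays (log2) for all 35557 clusters in grey, with the 3 receptors and Zeb2 in colour. Erbb3 lies at -3.37, with 25 clusters below it, while Gpr37 at -1.08 and Vldlr at -0.97 lie at the lower edge of the main cloud.

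The 3 receptors were compared in pairs by how far each moved from its own control mean, since levels of different clusters cannot be set against each other. On Sip1 cKO replicate 1 the signal left was 9.12% for Erbb3, 45.4% for Gpr37 and 52.5% for Vldlr. On Sip1 cKO replicate 2 it was 10.2% for Erbb3, 48.9% for Gpr37 and 49.5% for Vldlr. The order was the same on both arrays, but the gap between Gpr37 and Vldlr nearly closed on the second. The log2 change of Erbb3 minus that of Vldlr was -2.40, which ranged from -2.61 to -2.19 over the 4 pairings of a Sip1 cKO array with a control array. Minus that of Gpr37 it was -2.29, with a range of -2.41 to -2.16. The change of Gpr37 minus that of Vldlr was -0.11, with a range of -0.22 to -0.01, so its size varied widely between pairings. An exact permutation test over arrays, two-sided, gave p = 0.333 for each of the 3 pairs and 0.333 after Benjamini-Hochberg adjustment, the smallest p that 2 against 2 arrays allow. This test therefore cannot call any of these differences at 2 against 2 arrays, and its p does not show that Gpr37 and Vldlr changed alike. The 95% intervals of the signal left did not overlap between Erbb3 and either of the others, and they overlapped between Gpr37 and Vldlr.

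Few partners of the receptors could be followed, because genes were named only through the authors' table. Of 48 genes of ErbB receptors and neuregulin signalling 3 were named, and of these Erbb3 and Gab1 fell and Tgfa did not pass. Their median log2 change, with Erbb3 included, was -1.42, against -1.29 for all named genes. Of all 369 named genes 204 fell, and of all clusters 0.858% passed as lower. Gab1, a docking protein that links growth factor receptors to phosphoinositide 3-kinase, fell by 1.42 on the log2 scale (limma, adjusted p = 0.0339). It read 9.18 and 9.30 on the Sip1 cKO arrays, against 10.50 and 10.83 on the control arrays. Tgfa, a ligand of the epidermal growth factor receptor, had a log2 change of -1.32 (limma, adjusted p = 0.107), with control arrays 0.61 apart. Egfr, Erbb2, Erbb4 and the neuregulins were not analysed here.

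Of 20 prosaposin and Gpr37 partners only Gpr37 and Mag were named. Their log2 changes were -1.08 and -5.61, so the median of -3.35 is a midpoint near neither. Mag, an adhesion molecule of the myelin sheath that also stands on the oligodendrocyte marker list below, fell by 5.61 (limma, adjusted p = 0.0269). It read 6.54 and 7.92 on the Sip1 cKO arrays, against 12.78 and 12.90 on the control arrays, so its Sip1 cKO arrays were 1.38 apart where those of Gpr37 were 0.11 apart. The ligand precursor Psap and the related receptor Gpr37l1 were not analysed here.

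Of 47 genes of reelin and lipoprotein receptor signalling 6 were named. Of these 4 fell, and Vldlr and Ldlrad3 did not pass. By comparison, 204 of the 369 named genes and 0.858% of all clusters passed as lower. The median log2 change of the 6 was -1.24, against -0.01 for all clusters and -1.29 for all named genes. Apod, a lipid-binding apolipoprotein made by oligodendrocytes among other cells, fell by 3.08 (limma, adjusted p = 0.00574), which left 11.8%. Rap1a, a small GTPase that acts downstream of reelin, fell by 1.05 (limma, adjusted p = 0.0458). Ldlrad3 had a log2 change of -1.11 (limma, adjusted p = 0.0585). Reln, Lrp8, Dab1 and Apoe were not analysed here.

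Among 58 genes, mostly other surface receptors and receptor ligands of the oligodendrocyte lineage, 14 were named. Of the 14 named 12 fell, Ephb1 and Ddr1 did not pass, and 0 rose. The median log2 change was -1.57. For comparison, 204 of all 369 named genes fell and 0 rose. Plxnb3, a semaphorin receptor, left the least signal of the 14, 6.30% of control (log2 change -3.99, limma adjusted p = 0.0117). Erbb3, at 9.66%, had a point value between that of Plxnb3 and that of Lpar1, a receptor for lysophosphatidic acid, at 11.9%, and its 95% interval overlapped both. S1pr5, a receptor for sphingosine 1-phosphate, left 12.2%. Lpar1 fell by 3.07 (limma, adjusted p = 0.0103) and S1pr5 fell by 3.04 (limma, adjusted p = 0.0146). Sema4d, a membrane semaphorin, left 15.9%, and Il1rap, a shared subunit of receptors for interleukins of the interleukin-1 family, left 22.4%. The smallest changes on this list were near those of Gpr37 and Vldlr. Gpr62, an orphan G protein-coupled receptor of oligodendrocytes, left 49.3% (limma, adjusted p = 0.0499), and Ptprd, a receptor tyrosine phosphatase, left 51.0% (limma, adjusted p = 0.0356). Ptprd had nearly the same log2 change as Vldlr, -0.97, but its control arrays were 0.14 apart and those of Vldlr 0.25 apart. Of the 22 named pathway and receptor genes other than the 3 receptors 18 passed as lower (limma), against 0.858% of all clusters. Fewer of the 22 passed with any 1 array left out, as was also so over all clusters. With all 4 arrays all 22 had an unadjusted p under 0.05 (limma), as did 16.5% of all clusters. The 22 were named through the authors' choice of changed clusters on the same arrays, which favours such a result.

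**Figure D4:**
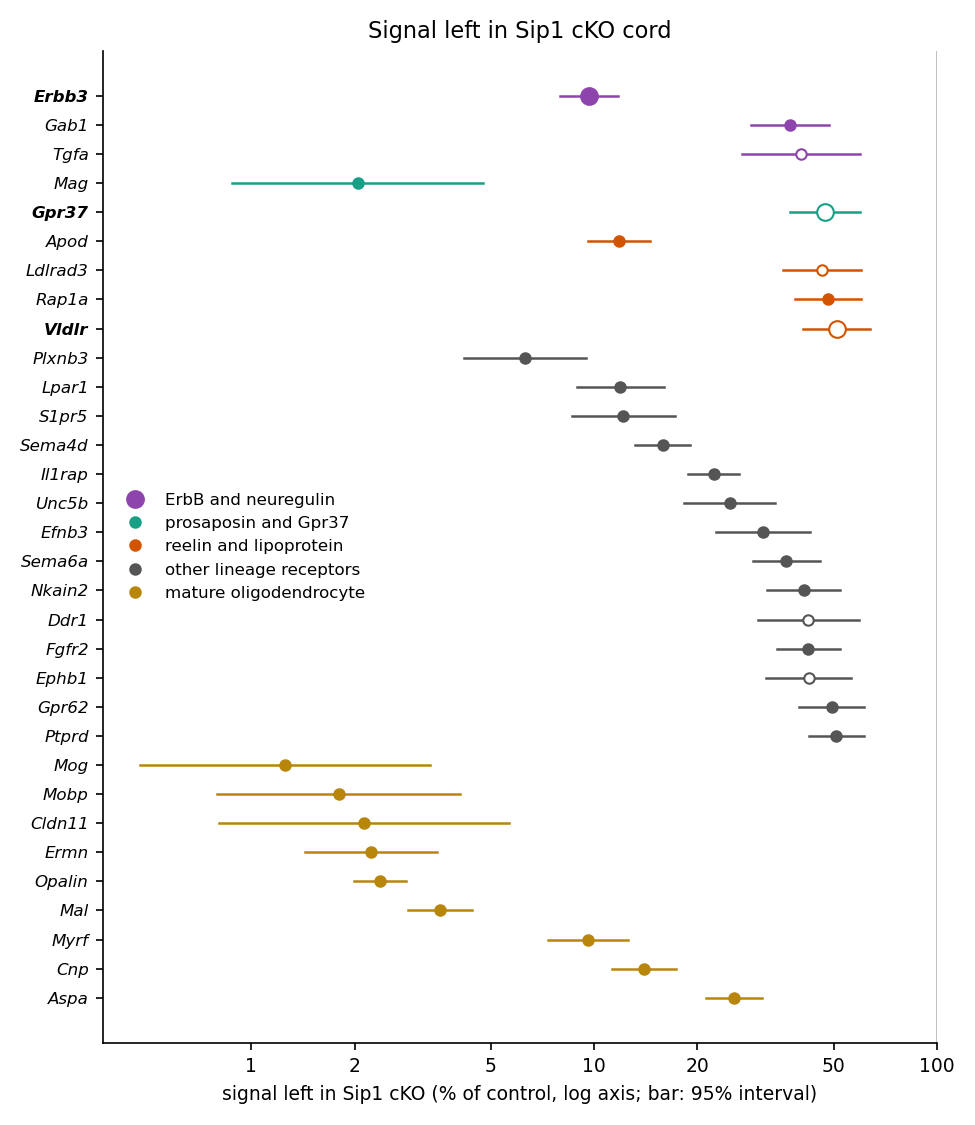
Signal left in Sip1 cKO as a percentage of control (log axis), with 95% intervals of the limma fit, for the 3 receptors in bold, reported genes of the 4 lists and the oligodendrocyte markers. Filled points passed at an adjusted p under 0.05 and open points did not, Mag stands under prosaposin and Gpr37 only, and Erbb3 at 9.66% lies far left of Gpr37 at 47.1% and Vldlr at 51.0%.

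Markers of mature oligodendrocytes were also lower in Sip1 cKO. Of 11 on the list 10 were named and all 10 fell, with a median log2 change of -5.44. Of all 369 named genes 204 fell, and of all clusters 0.858% passed as lower. The 10 were named through the same table chosen for change. Signal left was between 1.25% of control for Mog, a myelin glycoprotein, and 25.6% for Aspa, an enzyme that splits acetylaspartate. The summed linear signal of the 10 was 1996 and 2701 on the Sip1 cKO arrays, against 43351 and 46135 on the control arrays, and Sip1 cKO replicate 2 was the higher of its pair. By gene, 7 of the 10 were higher on Sip1 cKO replicate 2 than on Sip1 cKO replicate 1. Mog read 5.74 on replicate 1 and 7.35 on replicate 2. The other 3 markers, Opalin, Ermn and Myrf, were lower on replicate 2. Among the receptors, Erbb3 was higher on replicate 2 by 0.17 and Gpr37 by 0.11, while Vldlr was lower by 0.08. Myrf, a transcription factor of differentiating oligodendrocytes, left 9.62%, close to Erbb3, and read 7.21 on replicate 1 and 7.11 on replicate 2. Gpr37 and Vldlr both left more signal than any of the 10 markers by point value. The part of these markers' loss in the change of each receptor was not tested.

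Schwann cells of the nerve roots also make Erbb3. Of their listed markers Cdh19, a cadherin of Schwann cell precursors, read 6.62 and 7.04 on the Sip1 cKO arrays, against 7.74 and 7.79 on the control arrays. Its log2 change of -0.94 did not pass (limma, adjusted p = 0.120), and its control arrays were 0.05 apart. The part of Schwann cells in the Erbb3 signal was not tested. The listed markers of progenitors, astrocytes, neurons, microglia, endothelial and ependymal cells were not analysed here, so the share of Vldlr or Gpr37 signal that comes from those cells was not tested.

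Named genes with the most similar pattern were found by the root mean square difference over the 4 arrays, after each gene's own control mean had been subtracted. Nearest to Erbb3 was Elovl7, a fatty acid elongase, at 0.10 log2 units, followed by Cyp2j12, a cytochrome P450 enzyme, at 0.12, Myrf at 0.13, Ugt8a, which makes galactosylceramide, at 0.20, and Cpm, a membrane carboxypeptidase, at 0.20. Elovl7 read 7.42 and 7.54 on the Sip1 cKO arrays, against 10.73 and 11.07 on the control arrays. All 5 fell, with log2 changes between -3.65 and -3.38 (limma, adjusted p between 0.00569 and 0.0140). Such changes follow from picking genes by likeness to Erbb3 on the same arrays, and the same holds for the neighbours of Gpr37 and Vldlr below.

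Nearest to Gpr37 were Ell2, a transcription elongation factor, at 0.02 log2 units, Rap1a at 0.03, Idh1, a cytosolic isocitrate dehydrogenase, at 0.04, Golga7, a partner of a palmitoyltransferase, at 0.04 and Wnt3, a secreted Wnt ligand, at 0.04. Ell2, Rap1a, Golga7 and Wnt3 fell, and Idh1 had a log2 change of -1.09 (limma, adjusted p = 0.0752). Ell2 read 7.72 and 7.84 on the Sip1 cKO arrays, against 8.78 and 9.01 on the control arrays. Ell2 passed (limma, adjusted p = 0.0425) and Gpr37, with nearly the same values relative to control, did not (adjusted p = 0.0517). Both lay close to the threshold, and their difference was not tested.

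Nearest to Vldlr were Acss2, an acetyl-CoA synthetase, at 0.02 log2 units, Npc1, which moves cholesterol out of lysosomes, at 0.02, Efcab14, a protein with calcium-binding EF-hand motifs, at 0.02, Plin3, a coat protein of lipid droplets, at 0.03 and Rnf13, a ubiquitin ligase, at 0.03. Only Rnf13 of these 5 passed (limma, adjusted p = 0.0406), and the other 4 had an adjusted p between 0.0554 and 0.0630 (limma). Gpr37 and Vldlr were 0.10 apart by this measure, and Vldlr was the 42nd nearest of 368 named genes to Gpr37. Erbb3 was 1.62 from Gpr37 and 1.70 from Vldlr. Likeness over 4 arrays describes these arrays, with many named genes of similar change, and says nothing of a shared role.

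**Figure D5:**
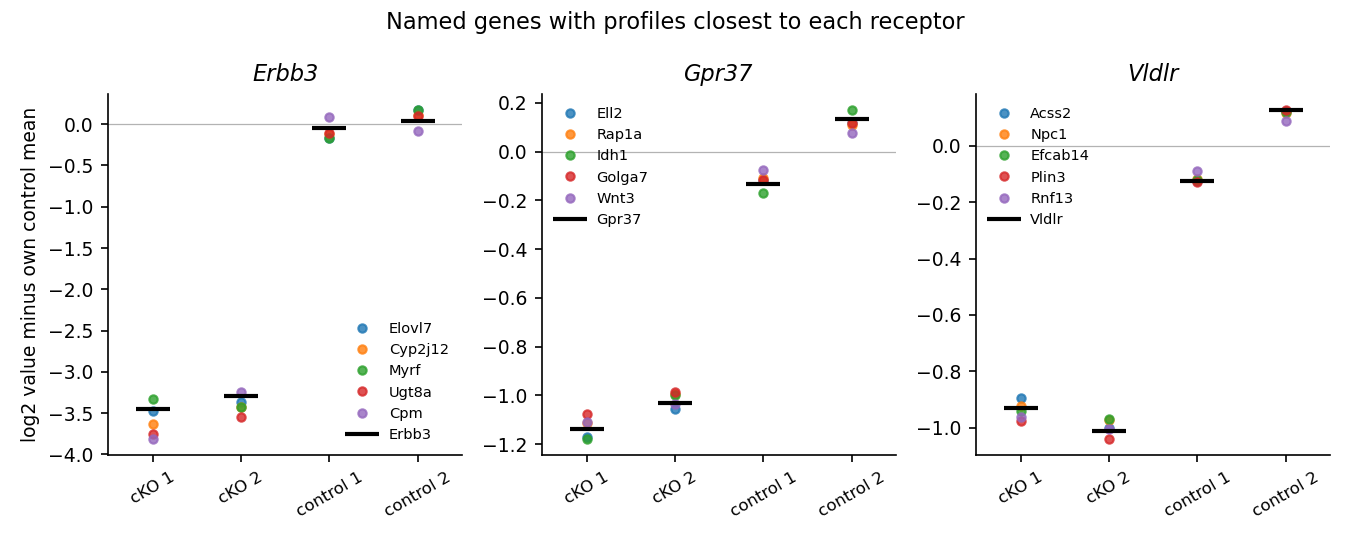
Log2 value minus the gene's own control mean on each of the 4 arrays, for each receptor (black bars) and its 5 nearest named genes (coloured points), with the Sip1 cKO arrays left of the control arrays and a different vertical scale in each panel. Erbb3 and its neighbours lie more than 3 log2 units below control in Sip1 cKO, and those of Gpr37 and Vldlr lie about 1 unit below.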

How the data were processed

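Total RNA of whole spinal cord was measured on arrays of type MoGene-1_0-st-v1 from Affymetrix (per the file headers), 2 in each group, and groups were read from the sample titles. The log2 values the authors deposited come from RMA, according to the submitters' processing notes; its version and the genome build are not given in the sources used here. They were used without further normalization, and RMA, which evens out arrays, would hide a shift common to nearly all transcripts. The authors' deposited table of 420 clusters gives, per the file headers, group mean intensity, centred log2 means and a fold ratio of the higher to the lower mean, for clusters from the 10th percentile of raw expression upwards. It calls a cluster up where control is higher, whereas every change here is Sip1 cKO minus control.

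Genes were named where a cluster of that table had 1 symbol (375 clusters), brought up to date through RefSeq names of assembly GRCm38.p6. The cluster with the highest mean stood for a gene with several. The test was limma (version 3.58.1, R 4.3.3, lmFit and eBayes, two-sided) with a term for group, fitted to every cluster, and p-values were adjusted by Benjamini-Hochberg across clusters. Signal left is 2 to the power of the log2 change, in percent. The fit was tested on simulated data. The receptors, the lists and the rule for named genes (the receptors, Zeb2, named list and marker genes, and 5 nearest profiles each) were chosen with earlier results of these data known. Some genes that the rule takes enter the counts but are not reported here by name. Deviations of arrays with the same replicate number were nearly uncorrelated (r = 0.0764), so the numbers were not taken as pairs. Alternatives were other scalings, filters, spread estimates, array weights, a replicate block and leaving out each array.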

Additional observations from a re-analysis of the deposited data

How the results depend on the processing

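All 3 receptors kept a negative log2 change in every setting run. Erbb3 lay between -3.45 and -3.29 when 1 array was left out in turn. Without either control array it lost its call, as did every other cluster. The authors' deposited table gives Erbb3 -3.15, and its difference from Vldlr as -2.19 and from Gpr37 as -2.07, where the cause was not tested. Gpr37 passed with a second quantile normalization (-1.10, adjusted p = 0.0493), and at a log2 change of -1.08 with the dim filter, an eBayes trend, array weights, without the low run of identifiers and at an adjusted p under 0.1. Vldlr, at -0.97, passed with the dim filter, the trend, without the low run and at an adjusted p under 0.1. With 1 array left out, Gpr37 lay between -1.22 and -0.95 and Vldlr between -1.10 and -0.85, with no call. Differences between receptors kept their sign with 1 array left out: -2.52 to -2.27 for Erbb3 against Vldlr, -2.38 to -2.19 for Erbb3 against Gpr37 and -0.21 to -0.02 for Gpr37 against Vldlr.

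The 383 calls over all clusters became 894 with the dim filter, 603 with the trend, 818 without the low run, 712 at an adjusted p under 0.1 and 0 to 60 with 1 array left out, where the spread of the single array left in a group is taken from the rest. The fits with 0 calls, those without control replicate 1 or 2, held 5560 and 6596 clusters at an unadjusted p under 0.05, against 5853 with all 4 arrays. With the replicate number as a block 111 clusters passed, Erbb3 kept its call (adjusted p = 0.0290, limma), and the 18 calls among the other pathway and receptor genes became 7. Those 18 became 0 to 6 with 1 array left out, an alternative chosen after seeing the data. The low run varied more between replicates (median residual SD 0.237 against 0.101 for the other clusters). The number of arrays limits the precision, and Erbb3 in Sip1 cKO read below the array medians.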
